A study of Mus musculus with 4 samples.

Results

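The genes described here are named for the factors that start and extend protein chains on the cytosolic ribosome. Most encode such factors, and the rest encode proteins that modify or repress them, or paralogues and partners with other roles. They are the autosomal protein-coding genes of the GENCODE M21 annotation whose symbols begin with Eif1 to Eif6, Eef1 or Eef2, without the eIF2 kinase genes (Eif2ak) and without Eif4enif1. The rule gave 60 genes of 20807 autosomal protein-coding genes, 47 named for initiation and 13 for elongation. They were read against a deposited list of 26496 ALaP-seq peaks from E14 mouse embryonic stem cells. In ALaP-seq, the peroxidase APEX, here fused to PML by a knock-in, biotinylates chromatin near PML bodies, the nuclear structures that the PML protein builds, once hydrogen peroxide is added. All 4 samples carried the knock-in. In 2 of them hydrogen peroxide was given and in 2 controls it was left out. The medium held serum, leukemia inhibitory factor, CHIR99021 (an inhibitor of GSK3) and PD0325901 (which blocks MEK). The sources used here do not say whether the line is a single clone.

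The list gives only where each peak starts and ends, as the authors called and merged it. It has no height, no p-value and no value for any sample, so treated cells could not be set against controls, no spread between replicates could be computed and the depth is unknown. No test was run: counts over the 60 genes stand beside the same counts over all autosomal protein-coding genes. Peak width, in bp, is the one quantity each peak carries. Whether a peak depends on closeness to PML bodies was not tested. Promoters of the 5 embryonic stem cell markers checked (Pou5f1, Sox2, Nanog, Zfp42 and Klf4) all held a peak, and those of 5 fibroblast and 4 primitive endoderm markers held none. The share over all autosomal protein-coding genes was 40.3%, and it is low at CpG-poor promoters. Promoter CpG observed/expected, defined below, was 0.174 to 0.677 at the markers without a peak. At those with one it was 0.303 to 0.960. The part of cell type in these counts was not tested.

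Initiation begins with small ribosomal subunits that carry eIF1, eIF1A, eIF3 and the initiator tRNA, which eIF2 delivers. eIF4F (the cap-binding protein eIF4E, the scaffold eIF4G and the helicase eIF4A) recruits them to the mRNA cap. After start codon selection, eIF5 and eIF5B let the large subunit join. In elongation, eEF1A brings aminoacyl-tRNAs, the eEF1B subunits recharge eEF1A with GTP, and eEF2 moves the ribosome along the mRNA. Phosphorylation of eIF2, of eEF2 and of the eIF4E-binding proteins is how stress and growth signals adjust the rate. Several of these mRNAs begin with a run of pyrimidines (a terminal oligopyrimidine tract), through which the mTOR pathway acts on their translation.

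The sequences at these promoters show what the peaks lie on. The 2 widest promoter peaks were those at Eif4a2 and Eif1, and the stretches below are the part of each just upstream of the 5' end of the gene model (GRCm38, chr16:23107210-23107443 and chr11:100319635-100319884, both on the plus strand). They are CpG-rich, with 23 CpG dinucleotides in 234 bases at Eif4a2 and 23 in 250 bases at Eif1.
Eif4a2: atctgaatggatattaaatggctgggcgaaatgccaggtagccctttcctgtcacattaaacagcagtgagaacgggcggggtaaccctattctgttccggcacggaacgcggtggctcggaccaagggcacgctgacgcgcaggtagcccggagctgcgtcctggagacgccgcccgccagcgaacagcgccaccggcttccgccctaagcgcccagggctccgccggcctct
Eif1: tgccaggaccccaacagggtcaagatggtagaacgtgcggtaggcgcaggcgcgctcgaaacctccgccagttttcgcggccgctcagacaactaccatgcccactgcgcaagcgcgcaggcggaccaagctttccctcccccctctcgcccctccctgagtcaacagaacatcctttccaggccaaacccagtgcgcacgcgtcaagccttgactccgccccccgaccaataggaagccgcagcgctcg

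Eef1d and Eif4g3 had the highest promoter CpG content among the members without a promoter peak. Their upstream stretches (chr15:75909557-75909734, minus strand, cut short by an annotated exon, and chr4:137992772-137993021, plus strand) held 22 CpG dinucleotides in 178 bases and 13 in 250 bases. The stretch of Eef1d was thus CpG-rich as well.
Eef1d: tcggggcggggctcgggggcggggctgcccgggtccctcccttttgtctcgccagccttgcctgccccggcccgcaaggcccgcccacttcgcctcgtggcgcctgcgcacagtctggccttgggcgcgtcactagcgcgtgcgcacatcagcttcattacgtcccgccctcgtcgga
Eif4g3: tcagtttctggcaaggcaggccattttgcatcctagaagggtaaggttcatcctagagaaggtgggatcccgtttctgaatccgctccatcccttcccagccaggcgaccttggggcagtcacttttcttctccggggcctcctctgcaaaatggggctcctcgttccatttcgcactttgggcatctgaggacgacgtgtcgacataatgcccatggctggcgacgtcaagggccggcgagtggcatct

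Most of these genes had a peak at the promoter. A promoter peak, meaning 1 that shares at least 1 bp with the 1 kb on either side of the 5' end of the gene model, was present at 49 of 60 genes (81.7%, exact Clopper-Pearson 95% interval 69.6 to 90.5%, counting error only). The same held for 40.3% of all autosomal protein-coding genes. Of the initiation genes 39 of 47 had one, and of the elongation genes 10 of 13. The latter are 7 genes named as eEF1 subunits or eEF2, of which 4 had a peak, and 6 genes of enzymes that modify these factors, all with one. The members were chosen with earlier results of this list known, so the difference is a description. The window made little difference: the count was 49 with 500 bp on either side (37.9% of all autosomal genes), with the peak midpoint in the window (39.8%), with at least 100 bp inside it (39.5%) and without mostly repeat-masked peaks (40.1%), and 50 with 2 kb (42.3%). With only peaks wider than the list median of 223 bp it was 38 (25.9%).

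**Figure D1:**
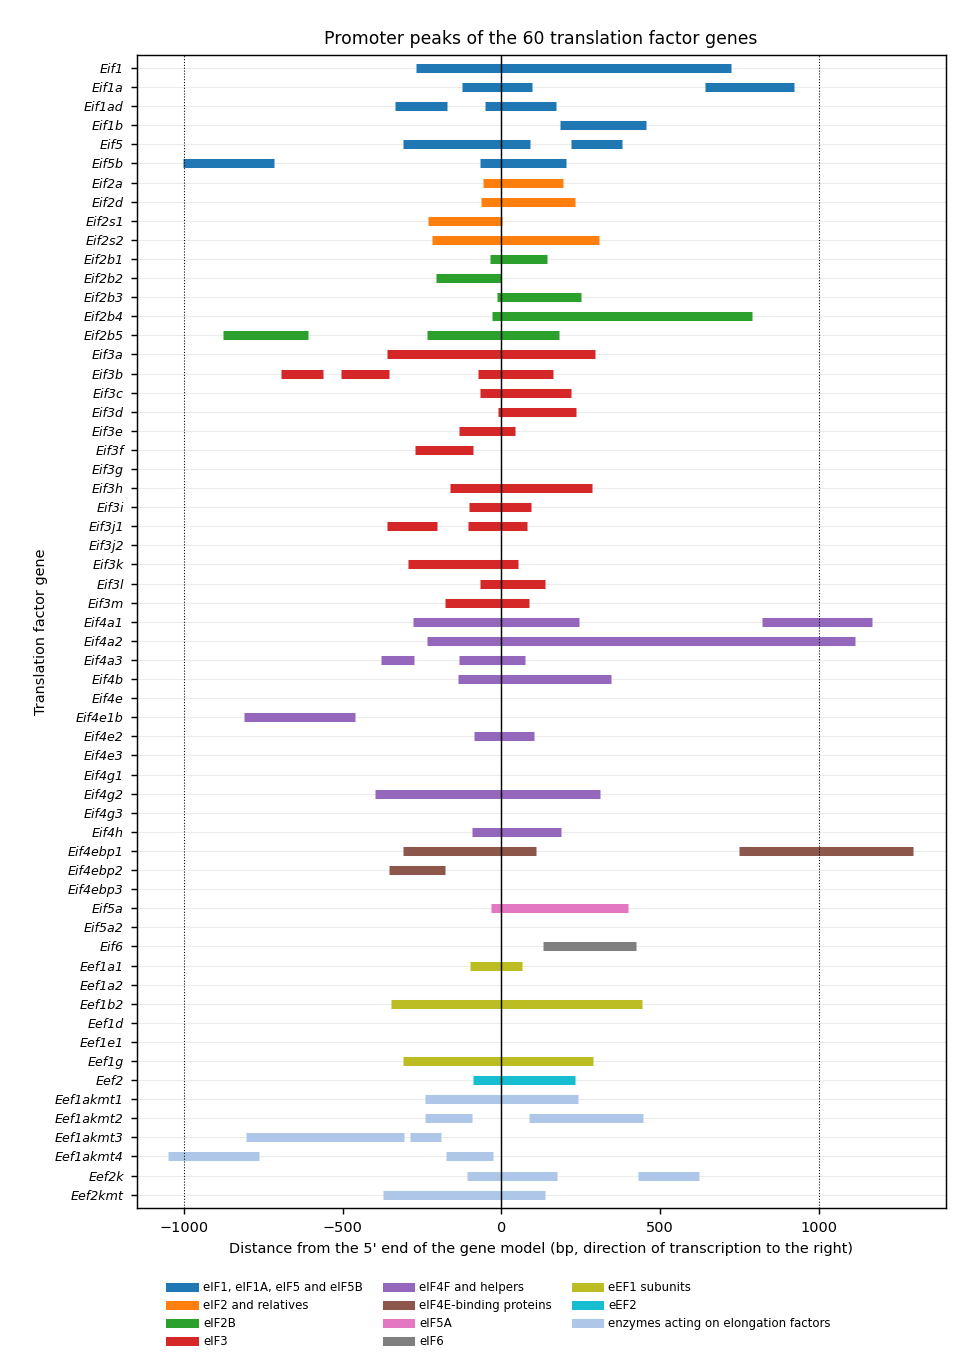
Promoter peaks of the 60 translation factor genes, drawn to scale against the 5' end of each gene model (x axis, bp, transcription to the right; dotted lines at 1 kb). Each row is a gene and each bar a peak, coloured by factor group; 49 rows carry 1 or more bars and 11 are empty.

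Most peaks sat on the start itself. The 49 genes had 64 promoter peaks, of which 41 covered the first base of the gene model and 46 overlapped an exon of the gene. The 41 were 64.1% of the 64, beside 50.1% of the gene and promoter peak pairs over all autosomal genes. Exon overlap was not compared with that of all genes. Counted by gene, 68.3% of the members had a peak over that base, against 24.2% of all autosomal genes. The shares by gene also carry the difference in having any promoter peak. The median peak midpoint lay at -8 bp from the 5' end (quartiles -116 and +76 bp, negative upstream), with quartiles closer together than over all autosomal promoter peaks (-141 and +142 bp). A single promoter peak was found at 35 genes, 2 peaks at 13 and 3 at Eif3b, whose peaks lay between -695 and +162. Promoters with 2 or more peaks occurred at 28.6% of the members with a peak and at 17.9% of all genes with one. Of the 64 peaks, 1, the upstream peak of Eif2b5, was mostly repeat-masked (62.7% of its bases).

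The widths were ordinary apart from a few wide peaks. The widest promoter peak of each gene had a median of 288 bp (quartiles 234 and 484 bp, range 166 to 1349 bp), beside a median of 282 bp (quartiles 186 and 423 bp) over all autosomal genes with a promoter peak. The 10 widest were at Eif4a2 (1349 bp), Eif1 (992 bp), Eif2b4 (821 bp), Eef1b2 (792 bp), Eif4g2 (710 bp), Eif3a (657 bp), Eef1g (597 bp), Eif4ebp1 (550 bp), Eif2s2 (529 bp) and Eif4a1 (526 bp). They are spread over the cap complex, an eIF4E-binding protein, start site selection, eIF2, eIF2B, eIF3 and the eEF1 complex rather than gathered in 1 of them.

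**Figure D2:**
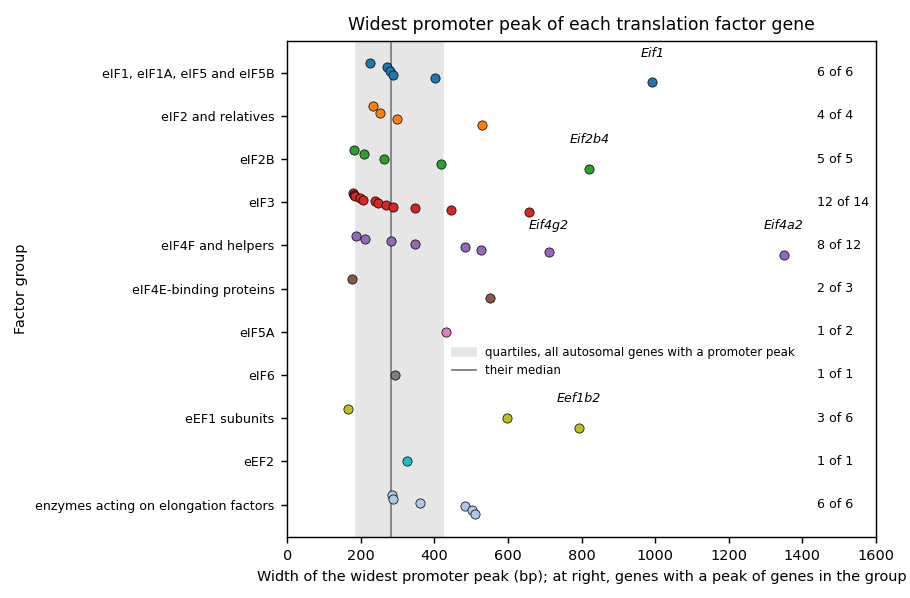
Width of the widest promoter peak (x axis, bp) of each translation factor gene with a peak, by factor group (rows; each point is a gene, spread vertically for legibility). The grey band and line give the quartiles and median of all autosomal genes with a promoter peak; Eif4a2 and Eif1 lie farthest to the right.

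Over all genes, CpG content moved with the presence of a peak, and most members were CpG-rich. Promoter CpG observed/expected, over 500 bp on either side of the 5' end, was cut into 10 classes of equal size over all protein-coding genes. Of the members, 55 lay in classes 6 to 10, and 47 of these 55 had a promoter peak, where 67.1% of all autosomal genes of these classes had one. In classes 9 and 10 the count was 29 of 31, beside 71.4% of all genes there. In classes 6 to 8 it was 18 of 24, beside 64.2%. Class 8 went the other way: 3 of its 7 members had a peak, beside 70.1% of its genes. The other upper classes had 5 of 6 in class 6 (55.9% of all its genes), 10 of 11 in class 7 (66.5%), 13 of 14 in class 9 (73.3%) and 16 of 17 in class 10 (69.5%). The 5 members in classes 1 to 5 included 2 with a peak, Eef1a1 and Eif4e1b, where the share of all genes was 12.1%. From class 1 to class 5 that share was 0.918, 2.82, 5.67, 14.7 and 36.9%. Among the members, the median CpG observed/expected was 0.83 with a peak and 0.747 without, and the median GC content 58.9 and 59.1%. Of the 11 without a peak, 8 lay in classes 6 to 10. The part of CpG content in the members' count was not tested.

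**Figure D3:**
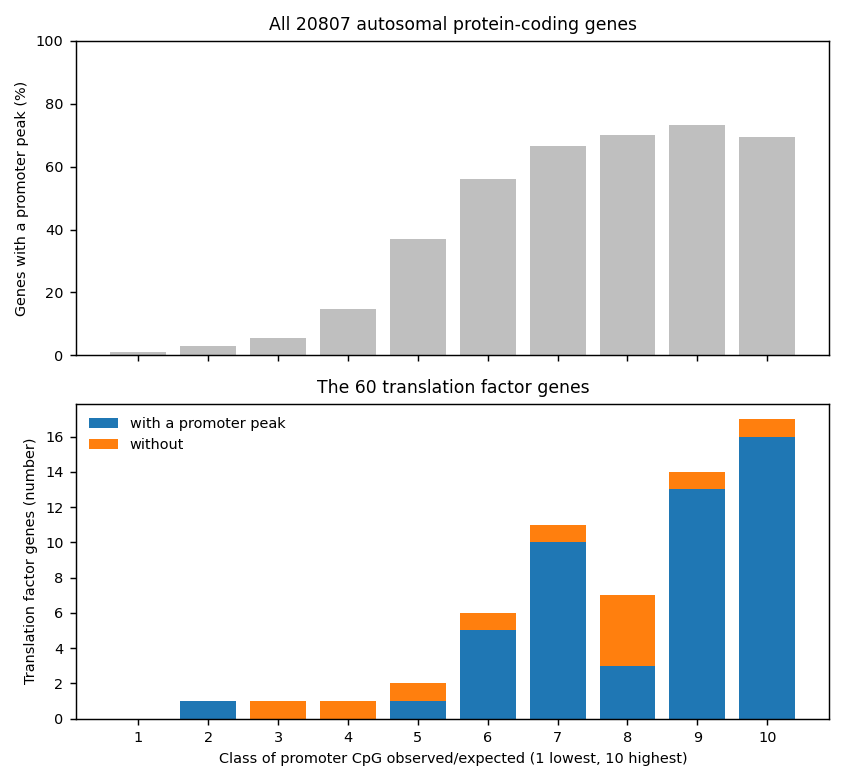
Top, share of all autosomal protein-coding genes with a promoter peak (y axis, %) by class of promoter CpG observed/expected (x axis). Bottom, number of translation factor genes in each class with (blue) and without (orange) a promoter peak; 31 of the 60 fall in classes 9 and 10, and 29 of those have a peak.

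All 6 autosomal genes of the group of eIF1, eIF1A, eIF5 and eIF5B, which act at the start codon and at subunit joining, had a promoter peak. At Eif1, whose product guards the fidelity of start codon choice, 1 peak of 992 bp (chr11:100319616-100320607) spanned -269 to +722. Its relative Eif1b had a peak of 272 bp that began 186 bp downstream of the 5' end and covered the RefSeq start. Eif1a, the autosomal relative of the X-linked eIF1A gene, had peaks of 222 and 280 bp, and Eif1ad, which encodes a protein with an eIF1A domain, had peaks of 164 and 225 bp. Eif5, the gene of the GTPase activator of eIF2, had peaks of 402 and 161 bp. Eif5b, the gene of the subunit-joining GTPase, had peaks of 287 and 271 bp, the former at -1004 to -718.

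The autosomal genes of eIF2 and its relatives, and those of its exchange factor, all had a promoter peak as well; the gamma subunit of eIF2 is encoded on X and Y. Eif2s1 and Eif2s2, for the alpha and beta subunits of eIF2, had peaks of 234 and 529 bp. The Eif2s1 peak ended 1 bp past the 5' end, so nearly all of it lay upstream. Eif2a and Eif2d, for factors that can bring the initiator tRNA without eIF2, had peaks of 252 and 298 bp. All 5 subunits of eIF2B, which recharges eIF2 with GTP and is the point where eIF2 phosphorylation acts, had a promoter peak: 182 bp at Eif2b1, 208 bp at Eif2b2, 264 bp at Eif2b3, 821 bp at Eif2b4, and 268 and 417 bp at Eif2b5. The Eif2b4 peak (chr5:31192640-31193460) spanned -30 to +790. Peaks at 2 of the 5, Eif2b1 and Eif2b2, were narrower than the median of the whole list (223 bp).

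Of the 14 eIF3 genes, which encode the scaffold on the small subunit, 12 had a promoter peak. Their widest peaks were mostly narrow, with a median of 241.5 bp and a range of 178 bp at Eif3e to 657 bp at Eif3a, the gene of the largest subunit. The peak at Eif3a (chr19:60790364-60791020) was centred at -34. With only peaks wider than the median of the list, 7 of the 14 kept one. Eif3g and Eif3j2 had none. Eif3j2 is the only member with 1 exon in its model, and the nearest peak lay 270092 bp away. Its paralogue Eif3j1, with up to 8 exons, had peaks of 158 and 185 bp. The peak nearest to Eif3g was 10162 bp away, although its promoter CpG observed/expected of 0.747 fell in class 8.

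The eIF4F genes and their helpers were divided at the 5' ends of their models, with a promoter peak at 8 of 12. With every annotated protein-coding start counted, 10 of the 12 had a peak. The helicase genes Eif4a1, Eif4a2 and Eif4a3 all had peaks, of 526 and 347 bp, of 1349 bp and of 210 and 105 bp. Eif4a3 encodes the helicase of the exon junction complex rather than of cap recognition. The Eif4a2 peak (chr16:23107210-23108558) extended 1114 bp into the gene. Eif4b and Eif4h, for proteins that stimulate eIF4A, had peaks of 484 and 283 bp. Among the cap-binding genes, Eif4e2, whose product binds caps in translational repression, had a peak of 188 bp, and Eif4e and Eif4e3 had none at the 5' end. Eif4e1b, a paralogue known from oocytes, had a peak of 348 bp at -810 to -463, with a CpG observed/expected of 0.0533 in the peak itself, the lowest of the 64. Its promoter fell in CpG class 2, in which 2.82% of genes had a promoter peak. Of the scaffold genes, Eif4g2, whose product lacks the eIF4E-binding part, had a peak of 710 bp (chr7:111082719-111083428). Eif4g1 and Eif4g3 had none at the 5' end.

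Other paralogues also differed at the 5' ends of their models. For the eIF4E-binding proteins, the repressors that mTOR releases from eIF4E, Eif4ebp1 had peaks of 419 and 550 bp and Eif4ebp2 a peak of 177 bp, whereas Eif4ebp3, in CpG class 4, had none. Eif5a, for the hypusine-bearing factor, had a peak of 432 bp (chr11:69921559-69921990), and its paralogue Eif5a2 had none, with the nearest 24049 bp away. The promoters of Eif5a and Eif5a2 had a CpG observed/expected of 0.812 and 0.800 and a GC content of 48.4 and 67.9%. Eif6, for the factor that keeps free large subunits apart from small ones, had a peak of 294 bp from 131 to 424 bp downstream.

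Of the 6 genes named as eEF1 subunits, 3 lacked a promoter peak. Eef1b2 and Eef1g, of the exchange complex, had wide ones of 792 bp (chr1:63176477-63177268) and 597 bp (chr19:8966732-8967328). Eef1d, of the same complex, had none at any of its 13 annotated protein-coding starts, and the nearest peak lay 18916 bp away. Eef1e1, whose product belongs to the multi-synthetase complex, and Eef1a2, the eEF1A gene of muscle and neurons, had none either. The peak nearest to the start of Eef1a2 lay 8920 bp away, inside the gene. Eef2 had 1 peak of 325 bp (chr10:81176540-81176864). All 6 genes for enzymes that modify elongation factors had promoter peaks. They were the eEF1A methyltransferase genes Eef1akmt1 (484 bp), Eef1akmt2 (360 and 151 bp), Eef1akmt3 (501 and 100 bp) and Eef1akmt4 (287 and 150 bp), the eEF2 kinase gene Eef2k (284 and 194 bp) and the eEF2 methyltransferase gene Eef2kmt (511 bp).

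The start site used mattered at 3 genes. Eef1a1, for the main eEF1A, had a narrow peak of 166 bp at the 5' end of its GENCODE model, the narrowest of the 49. Its RefSeq start lies 7427 bp further downstream and was covered by a peak of 817 bp (chr9:78481480-78482296). Eif4g1 had no peak at the 5' end of its model, in CpG class 3, but a peak of 126 bp covered its RefSeq start 4414 bp downstream. At Eif4e the nearest peak, of 114 bp, began 1002 bp from the 5' end, just outside the window, and covered another RefSeq start. With every annotated protein-coding start counted, 51 of 60 members had a peak, beside 43.6% of all autosomal genes. The 9 left without one were Eef1a2, Eef1d, Eef1e1, Eif3g, Eif3j2, Eif4e3, Eif4ebp3, Eif4g3 and Eif5a2. Of these, 6 lay in CpG classes 8 to 10 and 1 each in classes 4, 5 and 7.

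The RefSeq start of Eef1a1 is shown because the wide peak lies there. The 250 bases before it (RefSeq table, GRCm38.p6, chr9:78481725-78481974, minus strand) hold a match to the NRF1 motif GCGCATGC, read on the other strand and shown in capitals. This window is not among those counted for motifs below, which lie at the 5' ends.
Eef1a1: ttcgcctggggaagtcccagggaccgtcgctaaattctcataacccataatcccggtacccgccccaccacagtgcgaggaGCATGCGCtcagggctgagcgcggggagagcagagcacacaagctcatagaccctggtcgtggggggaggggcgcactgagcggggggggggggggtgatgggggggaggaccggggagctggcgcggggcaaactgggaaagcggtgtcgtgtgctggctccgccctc

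Neighbours shared some of these peaks. At 12 of the 49 genes, the promoter peak also lay within 1 kb of the start of another protein-coding gene, so it cannot be assigned to either. This is 24.5% of the members with a peak, beside 24.0% of all autosomal genes with a promoter peak. The partners were Mettl1 (Eef1akmt3), Alg3 and Gm49333 (Eef1akmt4), Ndufs1 (Eef1b2), Tmed7 (Eif1a), Banf1 (Eif1ad), Serp1 (Eif2a), Gtf2h3 (Eif2b1), Snx17 (Eif2b4), Atp6v1d (Eif2s1), Tmem234 (Eif3i), Map4k1 (Eif3k) and Txndc9 (Eif5b). An opposite-strand start within 1 kb was found at 13 members (21.7%), beside 11.2% of all autosomal genes, and 12 of these 13 had a peak, beside 76.6% of all genes of that kind. Eef1d, opposite Tigd5, was the exception. Of the 47 members without such a neighbour, 37 had a peak, beside 35.8% of all genes without one.

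Short motifs were counted in the stretch that begins 500 bp before the 5' end and stops 100 bp after it, on both strands. No motif contains another. The ETS motif CCGGAAG was present at 20 of 60 members (33.3%), beside 14% of all autosomal promoters. Within CpG classes 6 to 10 the shares were 36.4% of members and 23.0% of all promoters, and 77.9% of all promoters of these classes with the motif had a peak, beside 63.9% of those without it. It was unevenly spread over the factor groups: 9 of the 14 eIF3 genes held it (Eif3c, Eif3d, Eif3g, Eif3h, Eif3i, Eif3j1, Eif3k, Eif3l and Eif3m). The other groups are smaller. They held it at 2 of 12 genes in eIF4F and helpers, 2 of 6 in the eIF1 group, 2 of 5 in eIF2B and 1 of 2 in eIF5A. The rest held it at 1 gene or none. The group of eIF3 was singled out after its values were seen. Over the members with a promoter peak and a match, 12 of 18 had a match inside a peak, beside 70.1% of all autosomal genes with both. In eIF3 these were 6 genes; the matches of Eif3d and Eif3k lay outside their peaks, and Eif3g had no promoter peak.

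The eIF3 matches inside peaks are printed to show how they sit around the start, each with 11 bases on either side, 5' to 3' along the gene, with the match in capitals. CTTCCGG is the motif read on the other strand. Counted from the 5' end to the middle of the match, they lay at +14 and -20 in Eif3c, +24 in Eif3h, -12 and -44 in Eif3i, -331 in Eif3j1, +12 in Eif3l and +1 in Eif3m. All but the Eif3j1 match were within 50 bases of the start. Only matches inside peaks are listed, and most promoter peaks of the members cover the start. Closeness to it was thus partly set by that choice, and it was not compared with that of all genes. The matches outside peaks lay at -78 in Eif3d and +61 in Eif3k.
Eif3c: aaccttttcctCTTCCGGcgtcgtgcctg
Eif3c: attctttggtgCTTCCGGgaagtgacgcc
Eif3h: tcgtagttccgCTTCCGGcgcctcacgct
Eif3i: agcccccgcatCCGGAAGtcgtccctagt
Eif3i: aggcccttctaCTTCCGGgagcgagaggg
Eif3j1: tcgggtgatcaCCGGAAGggagaaccagg
Eif3l: gctgggcgggaCTTCCGGtccggccaagc
Eif3m: ctgtggctgacCCGGAAGcggttgtgcgt

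The E-box CACGTG, which Myc and USF proteins bind, was present at 15 of 60 members (25%), beside 12.1% of all autosomal promoters. Within CpG classes 6 to 10 the shares were 27.3% and 16.4%. These 15 were Eef1akmt3, Eef1akmt4, Eef2, Eef2k, Eif1ad, Eif2b4, Eif2b5, Eif3a, Eif3f, Eif3k, Eif4a1, Eif4b, Eif4h, Eif5a and Eif5a2, and all but Eif5a2 had a promoter peak. Among all autosomal genes of CpG classes 6 to 10, 69.9% of promoters with the E-box had a peak and 66.6% of those without it. In 9 of the 14 members with both, the E-box lay inside a peak, beside 53.3% of all such genes. The 9 sites are printed with 12 bases on either side. Of these, 7 lay within 100 bp of the 5' end, at -10 in Eif3a, -12 in Eif4h, -28 in Eef2k, -40 in Eef2, -66 in Eif3k, -82 in Eef1akmt4 and +66 in Eif5a. Those of Eif4a1 and Eef1akmt3 lay at -186 and -452. Here too the choice of sites inside peaks favours places near the start. The E-boxes outside peaks lay at -68 in Eif3f, -338 in Eif2b5, -454 in Eif2b4, -460 in Eif1ad and -482 in Eif4b.
Eef1akmt3: tgccacgcagtcCACGTGgagagccgagct
Eef1akmt4: tgacggaagttcCACGTGtttgtgtggagc
Eef2: acccggcgccgtCACGTGacgcacccaacc
Eef2k: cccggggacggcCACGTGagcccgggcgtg
Eif3a: ccgcgagggaatCACGTGgttccttccttt
Eif3k: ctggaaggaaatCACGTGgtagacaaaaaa
Eif4a1: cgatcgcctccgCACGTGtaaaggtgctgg
Eif4h: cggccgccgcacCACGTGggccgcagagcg
Eif5a: cagtctcttgagCACGTGcagagctgggac

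Of the other motifs, shares within CpG classes 6 to 10 are given for members and then for all promoters. The Sp1 box GGGCGG was found at 46 members (78.2% and 77.4%), the YY1 motif AAGATGGC at 5 (9.09% and 7%), the NRF1 motif at 4 (7.27% and 7.11%) and TCTCGCGA at 2 (3.64% and 2.97%). The NF-Y box CCAAT, at 24, was less frequent among members (40.0% and 54.9%). TATAAA, at 15, was above the share of these classes (23.6% and 15.7%) but not above that of all promoters, with 25% of the 60 members beside 25.6%. The CRE TGACGTCA was found only at Eef2 and the ATF4 motif TGATGCAA only at Eif1b. Over all 20807 promoters the shares were 50.1% for GGGCGG, 57.8% for CCAAT, 5.1% for AAGATGGC, 4.21% for GCGCATGC, 1.61% for TCTCGCGA, 2.75% for TGACGTCA and 1.52% for TGATGCAA. Of the 12 members with TATAAA and a promoter peak, 1 had the match inside a peak, beside 17.2% of all such genes. The promoter of Eif4a1 held both an E-box and a YY1 motif inside its 526 bp peak. The stretch below (chr11:69672424-69672673, minus strand), chosen after its values were seen, ends 1 base before the 5' end and shows both in capitals.
Eif4a1: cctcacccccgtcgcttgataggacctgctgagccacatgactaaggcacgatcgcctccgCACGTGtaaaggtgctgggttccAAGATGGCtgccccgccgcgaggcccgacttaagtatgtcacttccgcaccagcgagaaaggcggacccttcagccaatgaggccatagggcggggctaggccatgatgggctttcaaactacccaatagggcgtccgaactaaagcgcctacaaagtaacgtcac

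A terminal oligopyrimidine start, taken as C at the first base and pyrimidines at the next 4, was found at the 5' end of 3 members (Eif2s1, Eif3a and Eif3f), 5% beside 2.34% of all autosomal genes. With every annotated protein-coding start it was found at 9 (15.0% beside 5.44%), which added Eef1b2, Eef1d, Eif2b4, Eif3m, Eif4a2 and Eif4g2. A gene with more annotated starts has more chances of a match, and these shares were not adjusted for the number of starts. The starts concerned in Eif2b4 and Eif4g2 lie 2231 and 8781 bp downstream of the 5' end and had no peak within 1 kb. A peak covered the start in Eef1b2, Eif2s1, Eif3a, Eif3m and Eif4a2. At Eif3f the peak ended at -91, and Eef1d had none. The call rests on the exact annotated base, so a start misplaced by a few bases would be missed. The 7 starts nearest to the 5' end are printed with 20 bases before the start, and the pyrimidine run from the first transcribed base is in capitals.
Eef1b2: ttttccggacgctctgggtcCTTTTTTTCC
Eef1d: gagctgcgcgggcgccctccCTCTCCTTTg
Eif2s1: gccattcgtcacagcgccctCTCTTggttg
Eif3a: agggaatcacgtggttccttCCTTTCCgtc
Eif3f: tcttctgttctaggctctctCTCTTTCTCg
Eif3m: accctgtacggcaccgctctCTTTTCCggt
Eif4a2: gggcggcgccgtccgcctgtCTTTTCagtc

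Away from the promoter the members had, on average, somewhat more peaks than all autosomal genes. Without peaks at any protein-coding promoter the means were 2.00 for members and 1.35 for all genes, and both medians were 1. Peaks whose midpoint lay within 50 kb of the 5' end but outside its 1 kb window numbered 0 to 11 per member, with a median of 2.5 and a mean of 3.32 (SD 3.06 over 60 genes). Over all autosomal protein-coding genes the median was 1 (quartiles 0 and 3) and the mean 2.25. At least 1 distal peak was present for 48 of 60 members, beside 63.8% of all genes. Within 20 kb it was 34 (40.9%), within 100 kb 57 (78.7%), without peaks at any protein-coding promoter 39 (50.7%) and with only wider peaks 38 (48.7%). The number of other protein-coding starts in the same window moved with the count. The 6 members with no other start had a median of 0 distal peaks (0 over all such genes), the 31 with 1 or 2 a median of 2 (1 over all), the 13 with 3 to 5 a median of 4 (2 over all) and the 10 with 6 or more a median of 6 (5 over all). Of the 199 gene and peak pairs, 78 were at the promoter of another gene, 59 between genes, 45 inside another gene, 10 inside the same gene and 6 at another start of the same gene. The remaining pair was the peak of 550 bp at Eif4ebp1, which lay partly in the promoter window. Only protein-coding genes were considered for these places, so a peak between genes may lie in a noncoding gene.

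**Figure D4:**
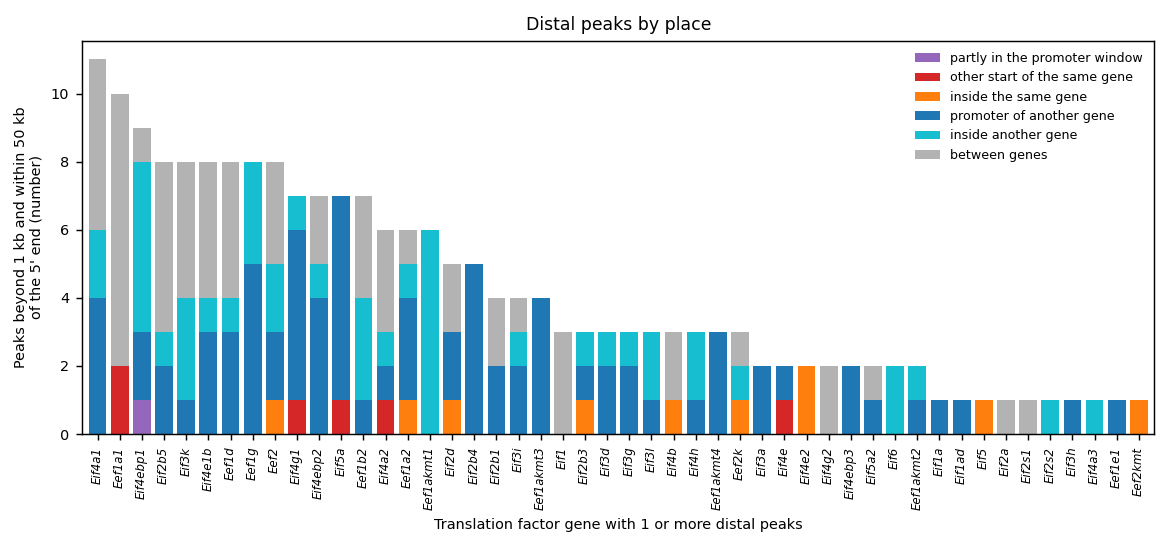
Distal peaks (y axis, number of peaks beyond 1 kb and within 50 kb of the 5' end) for each of the 48 translation factor genes with 1 or more, stacked by place. Places refer to protein-coding genes only. Eif4a1, Eef1a1 and Eif4ebp1 have 11, 10 and 9; the 8 peaks of Eef1a1 outside its own starts are all between genes.

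The highest distal counts were at Eif4a1 (11), Eef1a1 (10) and Eif4ebp1 (9), followed by Eef1d, Eef1g, Eef2, Eif2b5, Eif3k and Eif4e1b with 8 each. At Eef1a1, 2 of the 10 were at its downstream starts, with widths of 688 and 817 bp. The other 8 lay between genes, among them 1 of 919 bp (chr9:78476274-78477192) past the end of the gene and 7 with midpoints from -39216 to -14284. At Eif4a1, 4 of the 11 were at promoters of Fxr2, Mpdu1, Cd68 and Senp3, and 5 lay between genes at -46463 to -31868. At Eif4a2, 3 of 6 distal peaks lay between genes within 10 kb upstream and were wide, 811, 894 and 702 bp. At Eef2, 3 lay between genes at -7566 to -1545. At Eef1g, none lay between genes and 5 were at promoters of neighbours (B3gat3, Eml3 with Rom1, Mta2, Tut1 and Ahnak). Of the 7 of Eif4ebp2, 3 were at the promoter of Nodal. At Eif4ebp1, the peak of 550 bp counts both as a promoter peak and as distal, since it enters the window while its midpoint lies 1022 bp downstream. The elongation genes had a median of 6 distal peaks and the initiation genes a median of 2, while the eIF3 genes had a median of 0.5.

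Other genes of translation control mostly carried promoter peaks as well. Most of the 49 autosomal genes listed for their roles had a promoter CpG observed/expected within classes 6 to 10 (0.552 to 1.19). In these classes 67.1% of all autosomal genes had a promoter peak. Of the 49 genes, 44 had one, again beside 40.3% of all autosomal genes. They included all 4 eIF2 kinase genes (Eif2ak3 with the widest, 492 bp) and all 4 genes of the integrated stress response, which eIF2 phosphorylation switches on (Atf4 572 bp, Ddit3 612 bp, Ppp1r15b 449 bp and Ppp1r15a 327 bp). In the mTOR pathway 10 of 12 had one, with Mlst8 (620 bp) and Rheb (582 bp) widest and Mknk2 and Pdcd4 without. All 6 genes of termination and recycling had one (Etf1 612 bp), as did 7 of 7 mitochondrial factor genes (Gfm2 542 bp) and 5 of 6 genes acting at the poly(A) tail and cap (Paip1 855 bp, Pabpc4 without). Of the genes for hypusine, the modified lysine of eIF5A, and diphthamide, the modified histidine of eEF2, 6 of 8 had one (Dph3 750 bp), and Dhps and Dph2 had none. The helicase genes Dhx29 and Dhx9 had peaks of 403 and 171 bp. The X-linked Ddx3x, Eif1ax and Eif2s3x had no promoter peak, where 4.22% of all X-linked protein-coding genes had one, and Eif2s3y on chromosome Y had 1 of 546 bp.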

How the data were processed

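ALaP-seq reads were made from 4 samples of mouse embryonic stem cells, 2 per group. Per the submitters' processing notes and the series' design text, the authors trimmed reads with Trimmomatic, mapped them with Bowtie2 2.3.5.1 to repeat-masked mm10, and removed blacklisted and greylisted regions with bedtools; reads from repeats therefore had little to map to. Neither the peak caller and its threshold nor the merging of replicates is named in those sources. The deposited list holds chromosome, start and end only, so depth is unknown and no replicate error exists.

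Peaks were placed on GRCm38, which is mm10 (no peak ran past a chromosome end), with GENCODE M21 genes, 1 start per gene at the 5' end of its model. Sequences were read with pysam 0.24.0 from GRCm38.p6; 44 of 60 members matched the RefSeq promoter table by symbol. The share of members with a promoter peak carries an exact Clopper-Pearson 95% interval (scipy 1.17.1). The overlap code was tested on simulated data (2000 of 2000 promoter windows right) and gave the counts of bedtools 2.31.1 for 21938 of 21938 real windows. The members, factor groups, motifs and gene lists were chosen with earlier results of this list known.

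Named are the members without a promoter peak, the 10 with the widest, those with 2 or more, the 6 with the most distal peaks (9 with ties), paralogues, and small groups. Sequences are those of the 3 widest peaks (Eif2b4 has none, since an annotated exon adjoins its 5' end), of the 2 peakless members of highest CpG content, and of oligopyrimidine starts, with additions where stated. Alternatives were the window, the overlap rule, wider peaks only, other starts, repeat-masked peaks and the distal range.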

Additional observations from a re-analysis of the deposited data

How the results depend on the processing

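The number of members with a promoter peak was 49 with 500 bp either side of the 5' end, with the peak midpoint inside the window, with at least 100 bp inside it and without mostly repeat-masked peaks. It was 50 with 2 kb (Eif4e added) and 51 with any protein-coding start. With only peaks wider than the median of the list it was 38, beside 25.9% of all autosomal genes. With RefSeq starts, an alternative chosen after seeing the data, it was 39 of the 44 members with an entry (88.6%, beside 43.7% of all genes with an entry). By group, wider peaks left 3 of 5 eIF2B genes, 7 of 14 eIF3 genes and 1 of 3 genes of eIF4E-binding proteins. The mean number of distal peaks per member was 1.38 within 20 kb, 6.40 within 100 kb, 2.00 without peaks at any protein-coding promoter and 1.75 with only wider peaks; over all autosomal genes it was 0.881, 4.46, 1.35 and 1.14. No paired analysis was possible because the list carries no value per sample; for the same reason no replicate could be left out. Peaks cannot be ranked by strength, and whether shallow coverage explains a member without a peak was not tested.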

Other observations

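Small nucleolar RNA genes lie inside several translation factor genes. On the same strand and within the gene model, 8 of the 60 held 1 or more (13.3%), beside 1.26% of all autosomal protein-coding genes: Eef1b2, Eef2, Eif3a, Eif4a1, Eif4a2, Eif4g1, Eif4g2 and Eif5. Of these, 7 had a promoter peak, beside 66.2% of the 263 autosomal host genes, and the exception, Eif4g1, had its peak at a downstream start. Eif4a2 held the most, 5, among them Snora81 and Snord2, and also had the widest promoter peak. The hosts included 5 of the 10 members with the widest promoter peaks: Eif4a2, Eef1b2, Eif4g2, Eif3a and Eif4a1. The hosts Eef2 and Eif5 were not among the 10, with widest peaks of 325 and 402 bp. This was seen after the fact, and peak width was not compared between all host genes and other genes.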
